A study of Papio anubis with 28 samples.

Results

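Tissue that had regenerated on a cell-seeded SIS scaffold was compared with ileum grafted into the bladder, by RNA sequencing of 5 libraries of each kind. The members were the 10 of 28 libraries titled SIS Regen and Entero Ileum, taken by their labels and not by any measured value. All animals were olive baboons of genotype WT, and the 2 kinds of graft came from different animals. The 5 SIS animals carried a graft seeded with MSC and CD34+ HSPC, that is, mesenchymal stromal cells and CD34-positive blood stem and progenitor cells, labelled primary bone marrow cells. SIS is taken here as small intestinal submucosa, bowel wall stripped of its cells to leave the matrix. The 5 Entero animals received a piece of ileum with no seeded cells, the operation called bladder enterocystoplasty. Every one of these libraries is labelled urinary bladder as its tissue. Each animal also gave 1 library of its own native bladder (5 in each arm). A further 4 libraries of regenerated tissue, from the arm labelled PRS, are set beside some results. That arm also had a cell-seeded scaffold, and the labels do not spell out PRS. The sources used here give neither sex, age and time since surgery nor the region of a graft from which RNA was taken. No ungrafted ileum, scaffold without cells or seeded cells alone were analysed here, so what ileum brought with it and what changed after grafting cannot be told apart.

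The bladder is lined by urothelium, a layered epithelium with basal cells below and umbrella cells on top. Umbrella cells are plated with uroplakin proteins that make the lining tight to urine. The ileum is lined by a single layer of absorptive enterocytes with goblet, Paneth and hormone cells among them, all renewed from dividing cells in the crypts, and it takes up nutrients and, in its last part, bile acids. HOX genes are transcription factors whose combination along each cluster differs between body regions, and mesenchymal cells tend to keep it.

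Total counts ran from 23598232 to 31743317 per SIS library and from 20975648 to 29575787 per ileum library. Levels are given as CPM, read counts per 1000000 on library sizes scaled by the trimmed mean of M-values, TMM. Fold changes are log2 values of SIS over ileum from edgeR's quasi-likelihood test over all 28 libraries, with p adjusted by the Benjamini-Hochberg method over 17177 genes. Rose and fell stand for higher and lower in SIS regenerated tissue at an adjusted p under 0.05. Pearson's r between libraries, over the log2 CPM of the genes tested, ran from 0.864 to 0.975 within SIS, from 0.837 to 0.93 within ileum and from 0.725 to 0.821 between them. SIS library 2 stood apart from the other SIS libraries. The mean log2(CPM + 0.1) of 12 umbrella cell genes was 3.85 in it and 6.69 to 7.79 in the other 4, and that of 26 collagen and wound matrix genes was 8.94 against 6.23 to 7.01. Results that rest on it are given with and without it, and where another single library ends a call or moves a fold by over 1.5 times, the value without that library closes the paragraph. So does an adjusted p from another fit that changes a call of a named gene, or a list count that another fit moves as far, other than the fit with the replicate number as a term. The codes of the libraries carry a letter, F for libraries 1 to 3 and M for libraries 4 and 5 of each graft, which the labels do not explain and which 1 of these fits takes as a term. Ileum library 1 had 33.9% of its counts in 13 mitochondrial genes, against 14.0 to 18.5% in the other ileum libraries and 6.56 to 11.6% in the SIS libraries.

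Of the 17177 genes, 1874 rose (10.9%) and 1753 fell (10.2%), together 21.1%. Every list count below is to be read beside these shares. Fitted on the 10 graft libraries alone, 1026 rose and 1300 fell. At least 16-fold differences were fitted for 391 of the genes that rose and 525 of those that fell. The values of the 5 and 5 libraries did not overlap for 2159 genes (12.6%), 1071 with SIS above (6.24%) and 1088 with SIS below (6.33%). The native bladders of the same 2 arms gave 0 calls in the same model, with 711 genes at an unadjusted p under 0.05. DESeq2 called 8 genes higher and 56 lower in the SIS arm's native bladder, and limma's voom 0. Without SIS native library 3, edgeR's test called 1. Over the 3627 genes called between grafts, the median size of the log2 fold change was 2.08 between grafts and 0.298 between native bladders. The difference between grafts less that between native bladders passed for 616 genes in the positive direction (3.59%) and 511 in the negative (2.97%), together 6.56%. With the animal as a block, which pairs each graft with the native bladder of the same animal, the counts were 270 and 285. Without both libraries of 1 animal they were 401 and 378 (SIS animal 3), 387 and 397 (SIS animal 4), 320 and 347 (SIS animal 5) and 365 and 302 (Entero animal 5). Of the genes that rose, 603 were among the positive set, and of those that fell, 501 were among the negative set.

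**Figure D1:**
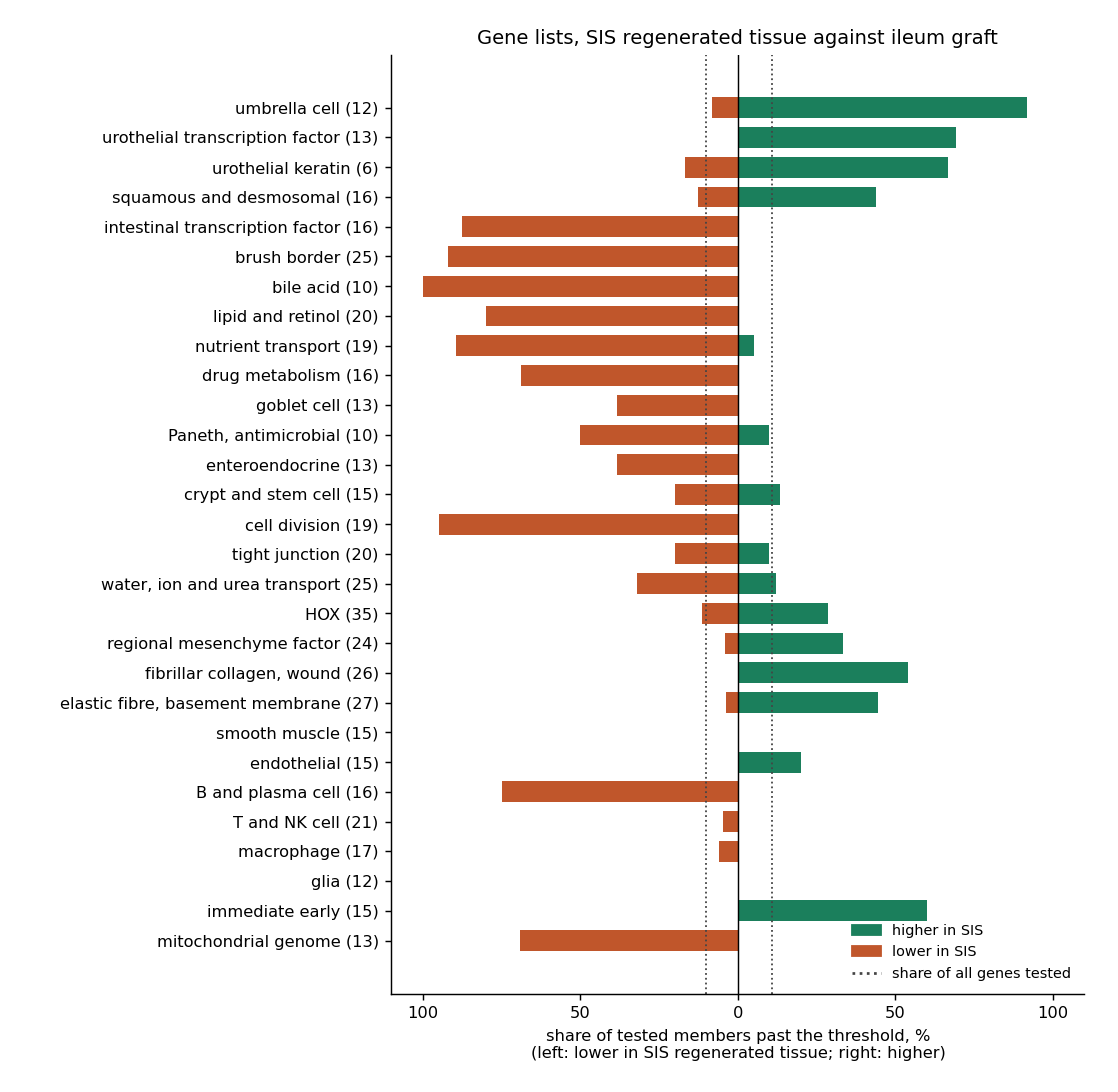
Share of the tested genes of each list, in percent, that fell (bars to the left) or rose (bars to the right) in SIS regenerated tissue against ileum graft at an adjusted p under 0.05. Most intestinal lists extend mainly to the left and umbrella cell genes mainly to the right. The crypt and stem cell list has short bars on both sides, and the smooth muscle and glia lists have no bar.

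Umbrella cell genes were high in SIS regenerated tissue and low in the ileum grafts. UPK1A, a uroplakin of the umbrella cell surface, was at 818, 71, 1919, 640.1 and 1658 CPM in SIS libraries 1 to 5 and 0, 3.81, 4.92, 0.333 and 6.09 CPM in ileum libraries 1 to 5 (log2 fold change 8.39, SE 1.37, adjusted p = 9.17e-05). UPK2 was at 379, 31.1, 957, 155 and 777 CPM in SIS libraries 1 to 5 and 0, 1.15, 1.02, 0 and 4.19 CPM in ileum libraries 1 to 5 (log2 fold change 8.49, SE 1.49, adjusted p = 0.000192). UPK3A was at 458, 56.3, 1246, 1495 and 1529 CPM in SIS libraries 1 to 5 and 1.66, 8.27, 0.73, 0.951 and 8.69 CPM in ileum libraries 1 to 5 (log2 fold change 7.88, SE 1.16, adjusted p = 2.91e-05). For all 3 uroplakins the lowest SIS value was that of library 2, and it still lay above every ileum value. In a bulk library, fewer cells of a type and less RNA per cell cannot be told apart. Of the umbrella cell list, 11 rose and 1 fell of 12 tested, with a median log2 fold change of 7.71, where 10.9% of all genes tested rose, 10.2% fell and the median was 0.04. The 1 that fell was BHMT, a betaine methyltransferase (named after its value was seen), at 1.7 ± 1.04 CPM against 5.59 ± 3.73 CPM. Its adjusted p was 0.0339, and it passed 0.05 no longer with some single libraries left out (adjusted p = 0.052 without SIS library 1, 0.0729 without SIS library 2, 0.0755 without SIS library 3, 0.0798 without SIS library 4, 0.109 without ileum library 3, 0.0645 without ileum library 5). The list then had 11 that rose and 0 that fell. SNX31, a sorting nexin of umbrella cells that binds uroplakins, rose, at 4.12 to 224 CPM in SIS and 0 to 0.499 CPM in ileum (log2 fold change 9.01, SE 1.19, adjusted p = 7.72e-06). TMEM40 had 1 read in the 5 ileum libraries and 15.1 to 57.6 CPM in SIS, a 4910-fold ratio of SIS to ileum (95% counting interval 880 to 194000). The fit with no filter on low counts did not call BHMT (adjusted p = 0.0519) and the fit to the 10 graft libraries alone did not call BHMT (adjusted p = 0.109). Counted without 1 library, the difference was at least 1250-fold higher without ileum library 5 for TMEM40. Leaving out 1 library moved the log2 fold change to 9.71 without ileum library 5 for UPK2.

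Most of the listed regulators of urothelial identity rose. TP63, the transcription factor of basal cells in layered epithelia, was at 60.4, 5.33, 85.9, 29 and 68.4 CPM in SIS libraries 1 to 5 and 0, 0.1, 0, 0.0475 and 0 CPM in ileum libraries 1 to 5. With 3 ileum reads in all, that is a 2380-fold ratio (95% counting interval 815 to 11600, adjusted p = 5.90e-06). GATA3, which maintains urothelial differentiation, was at 276, 71.3, 452, 278 and 289.5 CPM in SIS against 11.1, 15.8, 5.36, 7.61 and 4.84 CPM in ileum (log2 fold change 4.94, SE 0.82, adjusted p = 0.0001). RARG, a retinoic acid receptor, rose, at 47.2 to 148 CPM in SIS and 4.73 to 30.3 CPM in ileum (log2 fold change 2.94, SE 0.40, adjusted p = 1.18e-05). TFAP2C, GRHL3 and FOXA1, further factors of the urothelium, also rose without overlap between the groups, with adjusted p of 3.51e-05, 7.18e-05 and 0.00233. Of the list, 9 rose and 0 fell of 13 tested, with a median log2 fold change of 2.94. The other 4 did not pass, and 11 of the 13 had an unadjusted p under 0.05 by edgeR's test. ELF3 and KLF5, epithelial factors that bowel also uses and that are named here after their values were seen, did not pass. KLF5 was at 231, 234, 393, 516 and 582 CPM in SIS against 555, 415, 87.4, 209 and 547 CPM in ileum (95% interval of the log2 fold change -1.17 to 1.39). With 1 library left out of the counts it was 5890-fold higher without ileum library 2 for TP63.

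Of the 6 keratins tested, 4 rose, 1 fell and 1 did not pass. KRT7, a keratin of simple and transitional epithelia, was at 868, 317, 1061, 757 and 1533 CPM in SIS against 6.34, 56.2, 6.86, 6.61 and 20.7 CPM in ileum (log2 fold change 5.55, SE 0.92, adjusted p = 0.000109). KRT15, a basal keratin, rose, at 71 to 453 CPM in SIS and 0 to 6.74 CPM in ileum (adjusted p = 0.000463). KRT13, of intermediate layers, rose too, at 28.7 to 845 CPM against 0 to 1.8 CPM (adjusted p = 0.000655). KRT20, a keratin of umbrella cells and of intestinal epithelium alike, fell: it was at 4.48, 2.24, 10.1, 1.67 and 4.81 CPM in SIS libraries 1 to 5 and 1488, 1703, 759.7, 479 and 2338 CPM in ileum libraries 1 to 5 (log2 fold change -8.18, SE 1.21, adjusted p = 2.97e-05). KRT20 was the only 1 of the 6 keratins tested to fall, and every SIS value lay below every ileum value. Native bladder held 4.79 ± 5.11 CPM of it in the SIS arm and 7.76 ± 3.35 CPM in the Entero arm. KRT17, a keratin of stressed and basal cells, was at 7.46, 229.6, 14.1, 94.2 and 58 CPM in SIS against 0, 4.01, 6.57, 1.47 and 0.799 CPM in ileum (adjusted p = 0.0134), and SIS library 2 held its highest value. Without that library its log2 fold change was 4.08 (adjusted p = 0.0365). KRT14 was at 0 to 2.01 CPM in SIS and 0 to 1.2 CPM in ileum and did not pass (adjusted p = 0.634). Symbols for KRT5, KRT8 and KRT18 were not matched and are not analysed here. Limma's voom with the animal as a random effect did not call KRT17 (adjusted p = 0.126). With single libraries left out, the log2 fold change moved to 6.49 without ileum library 2 for KRT7.

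**Figure D2:**
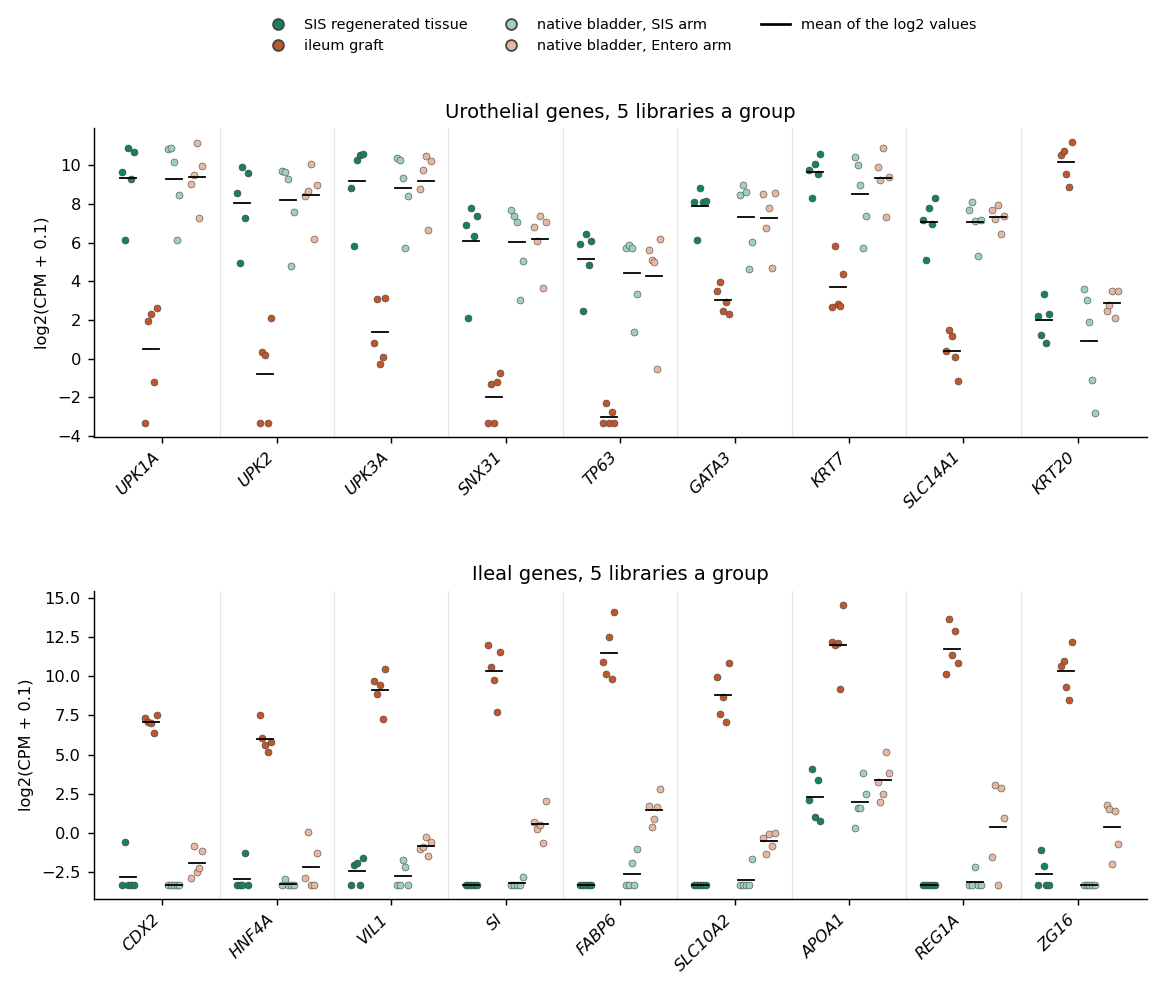
Levels of urothelial genes (upper panel) and ileal genes (lower panel) as log2(CPM + 0.1), 1 point for each library, 5 libraries in each of 4 groups: SIS regenerated tissue, ileum graft and the native bladders of both arms. For every gene shown the range of SIS regenerated tissue overlaps that of the native bladders. The urothelial genes other than KRT20 lie above the ileum grafts, and KRT20 and the ileal genes lie below them.

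Genes of layered epithelia formed part of the same difference. TMPRSS11E, a serine protease of such epithelia, was at 25.5, 1.82, 32.6, 28.1 and 31.4 CPM in the SIS libraries and had no read in any ileum library, so it was at least 1150-fold higher (adjusted p = 9.99e-06). Here and below, such bounds put 3 reads over the whole group in place of 0. The low value was that of SIS library 2. The desmosome genes PKP1, DSG3 and DSC3, whose proteins hold cells of layered epithelia together, and the keratin KRT6A rose without overlap. PKP1 was at 5.99 to 57.3 CPM against 0 to 0.401 CPM and KRT6A at 35.7 to 102 CPM against 0 to 0.802 CPM (adjusted p = 9.89e-05 and 7.56e-05). SPRR1B, a cornified envelope precursor, was at 23.6 to 429 CPM against 0 to 2.25 CPM (adjusted p = 0.000163). Of the list, 7 rose and 2 fell of 16 tested, with a median log2 fold change of 4.87, or 3.71 with the genes at 0 reads in 1 group set at their bound. The 2 that fell, named after their values were seen, were TGM3, a transglutaminase, and DSC2, the desmocollin of simple epithelia. TGM3 was at 0.441, 0.0468, 0.245, 0.39 and 0 CPM in SIS against 2.11, 50, 21.2, 7.99 and 11.2 CPM in ileum (log2 fold change -6.31, SE 1.55, adjusted p = 0.00571). DSC2 was at 3.65 to 43.6 CPM against 32.3 to 215 CPM (log2 fold change -2.61, adjusted p = 0.0177), with overlap. Single libraries shifted the log2 fold change to -5.52 without ileum library 2 for TGM3 and to -3.23 without SIS library 5 for DSC2.

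Among the genes with the largest differences in favour of SIS were several with no read in the ileum grafts. MYO3B, an unconventional myosin, was at 0.795 to 25.5 CPM (at least 656-fold higher), SP6, a zinc finger factor, at 0.468 to 21.1 CPM (at least 511-fold higher), and CERS3, a ceramide synthase, at 4.21 to 12.8 CPM (at least 382-fold higher). GLP1R, the receptor for glucagon-like peptide 1, was at 0.655 to 15.7 CPM (at least 489-fold higher). SIS library 2 was the lowest of the 5 for MYO3B, SP6 and GLP1R, at 0.795, 0.468 and 0.655 CPM. CLC, a galectin known from eosinophil crystals, was at 313, 109, 208, 13.5 and 223 CPM in SIS against 0, 0, 0, 0.0475 and 0.25 CPM in ileum (adjusted p = 0.00152). Native bladder held 205 ± 258 CPM of it in the SIS arm and 196 ± 254 CPM in the Entero arm. Limma's voom with the animal as a random effect did not call CLC (adjusted p = 0.084).

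The transcription factors that define intestinal epithelium were at the other extreme. CDX2, the master factor of intestine, was at 0, 0.561, 0, 0 and 0 CPM in SIS libraries 1 to 5 and 164, 138, 129.9, 82.3 and 183 CPM in ileum libraries 1 to 5 (log2 fold change -10.49, SE 1.11, adjusted p = 3.13e-06). Only SIS library 2 had any CDX2 reads. HNF4A, a nuclear receptor of enterocytes, was at 0, 0, 0, 0.307 and 0 CPM in SIS libraries 1 to 5 and 182, 65.8, 48.5, 36.4 and 54.9 CPM in ileum libraries 1 to 5 (log2 fold change -10.05, SE 1.40, adjusted p = 2.51e-05). Here SIS library 4 was the only one with reads. ISX, an intestine-specific homeobox factor, had no SIS read and 34 to 139.8 CPM in ileum, so it was at least 3560-fold lower (adjusted p = 9.51e-06). CREB3L3, a factor of lipid handling, fell to 0 to 0.155 CPM, against 29.7 to 324 CPM in ileum (adjusted p = 2.96e-06). NR5A2, a nuclear receptor of gut and liver, was at 1.15 to 5.33 CPM against 39.1 to 101 CPM (adjusted p = 6.51e-05). Of the list, 0 rose and 14 fell of 16 tested, with a median log2 fold change of -6.77. It was 14 of 16 with each single library left out as well. The mean log2(CPM + 0.1) of this list in native bladder was -0.35 to 0.1 in the SIS arm and -0.259 to 0.823 in the Entero arm. Between those native bladders 0 of its genes passed by edgeR's test and 4 had an unadjusted p under 0.05. GATA6, a factor also expressed outside bowel and named after its value was seen, did not pass, at 32.7 ± 18.1 CPM in SIS and 68.2 ± 32.9 CPM in ileum (95% interval of the log2 fold change -2.30 to 0.18). When libraries were left out in turn, the log2 fold change moved to -14.91 without SIS library 2 for CDX2 and to -14.02 without SIS library 4 for HNF4A.

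The enterocyte brush border, the carpet of microvilli with its digestive enzymes, showed the same pattern gene by gene. VIL1, the actin bundler villin of microvilli, was at 0, 0.14, 0.163, 0 and 0.233 CPM in SIS libraries 1 to 5 and 838, 471, 703, 152 and 1393 CPM in ileum libraries 1 to 5 (log2 fold change -12.69, SE 0.98, adjusted p = 3.08e-09). SI, the sucrase-isomaltase enzyme, had no read in SIS and 4046, 1530, 888, 208 and 2992 CPM in ileum, and was at least 70900-fold lower (adjusted p = 2.61e-07). MYO1A, the brush border myosin, was at 0.475, 0.655, 1.03, 0.976 and 0.853 CPM in SIS against 984, 679, 844, 191 and 1670 CPM in ileum (log2 fold change -10.08, SE 0.88, adjusted p = 2.32e-08). The peptidase ANPEP was at 1.76 to 8.88 CPM against 446 to 9573 CPM, and MEP1B at 0 to 0.233 CPM against 48.7 to 564 CPM (adjusted p = 6.32e-07 and 2.61e-06). MEP1A, the partner of MEP1B in the enzyme meprin, had 2 reads over the 5 SIS libraries, a 49800-fold ratio of ileum to SIS (95% counting interval 13800 to 411000). Of the list, 0 rose and 23 fell of 25 tested, with a median log2 fold change of -9.06. The mean log2(CPM + 0.1) of this list was 4.58 to 8.72 in the ileum grafts. Native bladders had -0.102 to 0.41 in the SIS arm and 0.69 to 1.225 in the Entero arm, without overlap. Between those native bladders 0 genes of the list passed by edgeR's test and 7 had an unadjusted p under 0.05. Ileum library 4 had the lowest ileum level of all 25 genes, such as 152 CPM for VIL1 against 471 to 1393 CPM in the other 4. Single libraries carried part of the difference, which was at least 27000-fold lower without SIS library 2 for MEP1A.

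Uptake of bile acids is the signature task of the terminal ileum, and every gene of its list that was tested fell. The symbol for ABCC3 was not matched and is not analysed here. FABP6, the bile acid carrier inside enterocytes, had no SIS read and 1894, 1146, 5689, 927 and 17770 CPM in ileum libraries 1 to 5, and was at least 203000-fold lower (adjusted p = 7.35e-07). SLC10A2, the sodium-driven bile acid importer, had no SIS read and 1002, 191, 409, 133 and 1852 CPM in ileum, and was at least 26400-fold lower (adjusted p = 1.00e-06). NR1H4, the bile acid receptor FXR, was at 0.305, 0, 0.299, 0 and 0.349 CPM in SIS against 164, 78, 91.9, 33.5 and 249 CPM in ileum (log2 fold change -9.29, SE 1.15, adjusted p = 3.45e-06). SLC51A, a subunit of the exporter on the blood side, was at 4.07, 2.2, 6.9, 14.3 and 2.02 CPM in SIS against 89.1, 113, 106, 37.6 and 332 CPM in ileum (log2 fold change -4.52, SE 0.70, adjusted p = 4.95e-05). ABCC2 and ABCB1, export pumps, fell with adjusted p of 3.75e-05 and 5.80e-07. ABCB1 kept a level of 18.8 to 34.8 CPM in SIS, against 154 to 1182 CPM in ileum. Of the list, 0 rose and 10 fell of 10 tested, with a median log2 fold change of -7.65, or -6.93 with the genes at 0 reads in 1 group set at their bound. The bound moved with 1 library and was at least 94200-fold lower without ileum library 5 for FABP6 and at least 16700-fold lower without ileum library 5 for SLC10A2. Some fold changes depended on 1 library, moving to -5.15 without SIS library 4 and -3.87 without ileum library 5 for SLC51A on the log2 scale.

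Most genes of lipid and vitamin A handling fell. Of that list, 0 rose and 16 fell of 20 tested, with a median log2 fold change of -8.34, or -7.05 with the genes at 0 reads in 1 group set at their bound. Its mean log2(CPM + 0.1) in native bladder was 0.068 to 0.233 in the SIS arm and 0.639 to 1.59 in the Entero arm. Between those native bladders 0 of its genes passed by edgeR's test and 3 had an unadjusted p under 0.05. FABP2, the intestinal fatty acid carrier, was at 0, 0.0468, 0.109, 0 and 0 CPM in SIS against 676, 950.2, 289, 338 and 2331 CPM in ileum (log2 fold change -14.58, SE 1.09, adjusted p = 4.36e-08). FABP1, the carrier shared with liver, had no SIS read and 427 to 4687 CPM in ileum, at least 64300-fold lower (adjusted p = 9.28e-06). APOA1, an apolipoprotein, was at 4.27, 17.2, 1.93, 10.2 and 1.63 CPM in SIS against 4656, 4038, 4394, 586 and 24120 CPM in ileum (log2 fold change -10.07, SE 1.24, adjusted p = 3.25e-06), and APOA4, made by enterocytes during fat absorption, had no SIS read and 1755, 42.8, 64.8, 78.7 and 1289 CPM in ileum (at least 23700-fold lower, adjusted p = 0.000319). APOA4 was high in ileum libraries 1 and 5. RBP2, the retinol carrier of enterocytes, was at 0 to 0.136 CPM against 10.4 to 1723 CPM, and MTTP, which loads lipid onto apolipoprotein B, at 0 to 0.17 CPM against 88.2 to 680.4 CPM (adjusted p = 3.30e-07 and 1.68e-06). DGAT1, which makes triglyceride in many tissues, fell less far, at 42.3, 26.3, 45, 64.4 and 38.9 CPM in SIS against 427, 487, 466, 175 and 573 CPM in ileum (log2 fold change -3.29, SE 0.34, adjusted p = 2.61e-07). Counted without 1 library, the difference was at least 38900-fold lower without ileum library 5 for FABP1 and at least 13800-fold lower without ileum library 1 for APOA4. Dropping 1 library took the log2 fold change to -16.02 without SIS library 3 and -13.88 without ileum library 5 for FABP2 and to -10.71 without SIS library 2 and -8.92 without ileum library 5 for APOA1.

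Of the nutrient transport list, 1 rose and 17 fell of 19 tested, with a median log2 fold change of -8.31. With the genes at 0 reads in 1 group set at their bound, the median was -7.32. Its mean log2(CPM + 0.1) in native bladder was -0.653 to -0.352 in the SIS arm and -0.225 to 0.331 in the Entero arm, without overlap. Between those native bladders 0 of its genes passed by edgeR's test and 2 had an unadjusted p under 0.05. SLC7A7, a carrier of basic amino acids, had the smallest p of the list: it was at 3.97, 2.38, 3.45, 2.79 and 2.91 CPM in SIS libraries 1 to 5 and 258, 136, 195, 48.3 and 336 CPM in ileum libraries 1 to 5 (log2 fold change -5.97, SE 0.42, adjusted p = 1.16e-09). SLC6A19, the main carrier of neutral amino acids, was at 0.17, 0, 0, 0 and 0 CPM in SIS against 1328, 1046, 1356, 141 and 1501 CPM in ileum (log2 fold change -14.77, SE 1.34, adjusted p = 4.54e-08). SLC15A1, the peptide carrier, had no SIS read and 35.6 to 341 CPM in ileum (at least 6930-fold lower, adjusted p = 7.09e-07). The 1 that rose was SLC46A1, the folate carrier (named after its value was seen), at 10.9, 4.58, 17.2, 8.47 and 22.1 CPM in SIS against 5.53, 0.702, 4.24, 2 and 2 CPM in ileum (log2 fold change 2.13, SE 0.49, adjusted p = 0.00285), with overlap. PDZK1, a scaffold protein that anchors transporters in the brush border, was at 4.24, 4.35, 3.78, 3.07 and 3.22 CPM in SIS against 707, 463, 288, 88.7 and 1005 CPM in ileum (log2 fold change -7.10, SE 0.52, adjusted p = 1.31e-09). KHK, which starts fructose use, and PCK1, of the making of glucose, fell too. KHK was at 1.45 to 4.81 CPM against 99.9 to 1441 CPM and PCK1 at 0 to 0.462 CPM against 37.4 to 697 CPM (adjusted p = 1.28e-07 and 1.28e-05). In the other direction SLC2A1, the basic glucose carrier of most cells, was at 53.9, 88.3, 106, 119 and 211 CPM in SIS against 30.3, 17, 20.1, 11 and 7.64 CPM in ileum (log2 fold change 2.75, SE 0.51, adjusted p = 0.000345). Of a hypoxia and glycolysis list, which holds SLC2A1, 2 rose and 6 fell of 17 tested, with a median log2 fold change of -0.10. Leaving out 1 library moved the log2 fold change to -17.84 without SIS library 1 for SLC6A19.

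Enzymes that process drugs, steroids and other foreign compounds fell: of that list, 0 rose and 11 fell of 16 tested, with a median log2 fold change of -3.79. CYP3A4, the main drug-metabolising cytochrome of gut, was at 2.14, 0, 1.22, 0.697 and 12.7 CPM in SIS against 1185, 350.5, 635, 78.2 and 1563 CPM in ileum (log2 fold change -7.83, SE 1.37, adjusted p = 0.000182). CYP4F2, a fatty acid hydroxylase, was at 0 to 0.891 CPM against 134 to 1749 CPM and ABCG2, an efflux pump, at 15.1 to 39.4 CPM against 58.6 to 652 CPM (adjusted p = 1.82e-06 and 1.08e-05). Reads of near-identical CYP3A and CYP4F copies may be shared in counting, so single values of these families are uncertain. AOC1, a diamine oxidase that breaks down histamine, had no SIS read and 74.8 to 464 CPM in ileum (at least 10900-fold lower, adjusted p = 3.17e-07). For the drug metabolism list, DESeq2 gave 1 that rose and 13 that fell. With single libraries left out, the log2 fold change moved to -9.53 without SIS library 5 for CYP3A4.

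Goblet cells, which make mucus, gave a divided result. Of their list, 0 rose and 5 fell of 13 tested, with a median log2 fold change of -2.77. Symbols for MUC2 and ST6GALNAC1 were not matched and are not analysed here. ZG16, a lectin of intestinal mucus, was at 0, 0.374, 0.136, 0 and 0 CPM in SIS against 1644, 1981, 630.2, 351 and 4725 CPM in ileum (log2 fold change -14.23, SE 1.84, adjusted p = 1.29e-05). TFF3, the trefoil peptide of goblet cells, was at 0, 0, 0, 0.307 and 0 CPM in SIS against 560.2, 1827, 618, 565 and 2327 CPM in ileum (log2 fold change -13.96, SE 2.40, adjusted p = 0.000156), and ATOH1, the factor that commits cells to secretory fates, at 0 to 0.669 CPM against 10.4 to 90.8 CPM (adjusted p = 0.000216). MUC5B, a secreted mucin, fell, at 0 to 1.39 CPM in SIS and 348 to 3054 CPM in ileum (adjusted p = 3.08e-05). Other secretory genes were present in SIS and did not pass. FCGBP, a mucus protein named after its values were seen, was at 6.31, 24.2, 124, 4985 and 54.7 CPM in SIS libraries 1 to 5 and 1919, 4690, 588, 815 and 2298 CPM in ileum libraries 1 to 5 (adjusted p = 0.722). SIS library 4 exceeded every ileum library for FCGBP, and the other 4 SIS libraries lay below all of them. Without SIS library 4 the log2 fold change of FCGBP was -5.30 (adjusted p = 0.0566). CLCA1, a mucus-processing protease also named after its values were seen, was at 95.4, 118, 677, 2215 and 1012 CPM in SIS against 1636, 2768, 248, 747 and 2478 CPM in ileum (adjusted p = 0.653), and AGR2, a chaperone for mucins, at 62.2, 27.3, 91.5, 302 and 48.3 CPM in SIS against 405, 1105, 153, 594 and 1358 CPM in ileum (adjusted p = 0.0809). DESeq2 called AGR2 (adjusted p = 0.017) and the fit to the 10 graft libraries alone called AGR2 (adjusted p = 0.0234). AGR2 passed without SIS library 4 (log2 fold change -3.65, adjusted p = 0.0435). Single libraries shifted the log2 fold change to -15.43 without SIS library 2 and -13.54 without ileum library 5 for ZG16 and to -17.95 without SIS library 4 for TFF3.

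Membrane mucins, which coat the cell surface, went both ways. MUC3A, of the enterocyte surface, had no SIS read and 44 to 2256 CPM in ileum (at least 22400-fold lower, adjusted p = 4.69e-06). MUC13 was at 0.17, 0.748, 0.408, 47.9 and 1.12 CPM in SIS against 1085, 2124, 805, 513 and 1403 CPM in ileum (log2 fold change -6.88, SE 1.82, adjusted p = 0.00841), and SIS library 4 was again the highest of its group. MUC20 rose, at 48.4 to 813 CPM in SIS and 0.0475 to 6.92 CPM in ileum (adjusted p = 0.000109), and MUC15, with no ileum read, was at 0.374 to 11.6 CPM (at least 216-fold higher, adjusted p = 0.000453). MUC1, a mucin of many epithelia, was at 34.9, 45.7, 188, 251 and 226 CPM in SIS against 14.7, 76.3, 22.9, 54.2 and 11.4 CPM in ileum and did not pass (adjusted p = 0.073). Of the list, 2 rose and 3 fell of 9 tested, with a median log2 fold change of 1.79. DESeq2 called MUC1 (adjusted p = 0.0326). For the membrane mucin list, the fit to the 10 graft libraries alone gave 1 that rose and 3 that fell. With 1 library left out of the counts it was at least 7540-fold lower without ileum library 1 for MUC3A. When libraries were left out in turn, the log2 fold change moved to -10.92 without SIS library 4 for MUC13.

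Paneth cells secrete defence proteins at the crypt base. REG1A, a regenerating lectin, had no SIS read and 1137, 12800, 2568, 7476 and 1870 CPM in ileum (at least 193000-fold lower, adjusted p = 1.05e-05), and the defensin DEFA6 had no SIS read and 342, 637, 146, 1504 and 26.9 CPM (at least 20000-fold lower, adjusted p = 9.17e-05). REG3A, a bactericidal lectin, had no SIS read and 1126, 2097, 279, 2733 and 31 CPM (at least 46900-fold lower, adjusted p = 0.000369). These values spread widely among the ileum libraries, and ileum library 5 was the lowest for DEFA6 and REG3A. REG1A and REG1B, and the defensins, have near-identical copies, so their single values are uncertain. Of the Paneth and antimicrobial list, 1 rose and 5 fell of 10 tested, with a median log2 fold change of -3.94, and these counts were 0 and 5 without any 1 of SIS libraries 3 or 5 or any 1 of ileum libraries 1, 3 or 5. The 1 that rose was LYZ, a lysozyme that myeloid cells also make, at 371, 102, 1082, 728 and 999 CPM in SIS against 46.8, 141, 20.7, 315 and 66 CPM in ileum (log2 fold change 2.48, SE 0.81, adjusted p = 0.0292), with overlap. LYZ missed the threshold with some single libraries left out (adjusted p = 0.0662 without SIS library 3, 0.0625 without SIS library 5, 0.0582 without ileum library 1, 0.0632 without ileum library 3, 0.0712 without ileum library 5). In native bladder the list had a median log2 difference between the SIS and Entero arms of -5.34, with 0 genes past the threshold by edgeR's test and 6 at an unadjusted p under 0.05. In the difference between grafts less that between native bladders 1 of the 10 was negative and 0 positive (4 at an unadjusted p under 0.05). PLA2G2A, a phospholipase of Paneth cells, fell, at 10.2 to 67.2 CPM in SIS and 104 to 844 CPM in ileum (adjusted p = 0.00194). Single libraries carried part of the difference, which was at least 120000-fold lower without ileum library 2 for REG1A, at least 10100-fold lower without ileum library 4 for DEFA6 and at least 31000-fold lower without ileum library 4 for REG3A. Some fold changes depended on 1 library, moving to 3.26 without ileum library 4 for LYZ on the log2 scale.

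Some hormone cell genes fell, and none of those tested rose. MLN, motilin, had no SIS read and 0.956, 7.87, 1.31, 8.79 and 7.94 CPM in ileum (at least 201-fold lower, adjusted p = 0.00085). GCG, the glucagon precursor, was at 0, 1.17, 0, 0 and 0 CPM in SIS against 9.4, 17.9, 4.19, 26.2 and 38.8 CPM in ileum (log2 fold change -6.42, SE 1.53, adjusted p = 0.00549), and PYY, the satiety peptide of lower bowel, at 0.0339, 0.234, 0, 0.948 and 0 CPM in SIS against 8.4, 5.42, 25.9, 9.41 and 24.5 CPM in ileum (log2 fold change -5.88, SE 1.48, adjusted p = 0.00797). Of the list, 0 rose and 5 fell of 13 tested, with a median log2 fold change of -3.20. With single libraries left out, these counts were 0 and 3 without any 1 of SIS libraries 2, 3 or 5 or ileum library 5. Dropping 1 library took the log2 fold change to -12.06 without SIS library 2 for GCG and to -7.81 without SIS library 4 for PYY.

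Genes of crypt stem cells did not separate the grafts as a list, where 10.9% of all genes tested rose and 10.2% fell. Of the crypt list, 2 rose and 3 fell of 15 tested, with a median log2 fold change of 0.05. The counts moved with single libraries left out and were 1 and 3 without SIS library 4 or ileum library 3 and 0 and 3 without ileum library 5. LGR5, the receptor that marks intestinal stem cells, was at 4.54, 0.748, 4.18, 4.21 and 6.01 CPM in SIS libraries 1 to 5 and 8.05, 6.17, 0.0487, 4.71 and 3.29 CPM in ileum libraries 1 to 5 (adjusted p = 0.914, 95% interval of the log2 fold change -1.94 to 1.59). OLFM4, another crypt marker, was at 0, 18.2, 1.52, 126 and 22.6 CPM in SIS libraries 1 to 5 and 176, 847, 60, 608 and 39.3 CPM in ileum libraries 1 to 5 (adjusted p = 0.306), and SIS library 4 was the highest of its group. Both genes overlapped between the groups. RGMB, a co-receptor for bone morphogenetic proteins, fell, at 12.4 to 22.4 CPM in SIS and 23.2 to 54.2 CPM in ileum (log2 fold change -1.13, SE 0.31, adjusted p = 0.0101), and so did CDCA7, a gene of dividing cells, at 0.17 to 1.25 CPM against 5.79 to 70.8 CPM (adjusted p = 0.00619). For the crypt list, the fit to the 10 graft libraries alone gave 0 that rose and 3 that fell.

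Cell division genes fell almost without exception: of them, 0 rose and 18 fell of 19 tested, with a median log2 fold change of -3.58. MKI67, the proliferation marker Ki-67, was at 0.441, 3.41, 5.35, 0.613 and 2.36 CPM in SIS libraries 1 to 5 and 267, 163, 56.5, 368 and 105 CPM in ileum libraries 1 to 5 (log2 fold change -6.30, SE 1.39, adjusted p = 0.00202). CCNB2, a mitotic cyclin, was at 0.339, 0.748, 1.01, 0 and 0.194 CPM in SIS against 17.3, 24, 16.4, 62.6 and 39.8 CPM in ileum (log2 fold change -6.12, SE 1.16, adjusted p = 0.000447), and MCM5, of the DNA replication helicase, at 8.14, 3.13, 8.15, 5.66 and 8.84 CPM in SIS against 27, 31.2, 33.6, 90.2 and 53.6 CPM in ileum (log2 fold change -2.79, SE 0.62, adjusted p = 0.00199). Ileum library 4 was the highest for all 3. RRM2, a subunit of ribonucleotide reductase, fell, at 2.96 to 13.6 CPM in SIS and 42.5 to 180.2 CPM in ileum (adjusted p = 0.00174). Of these 19 genes 0 passed by edgeR's test in the difference between grafts less that between native bladders (8 at an unadjusted p under 0.05), and their median log2 difference between the native bladders was -1.48. MKI67 was at 1.92 ± 1.56 CPM in the native bladders of the SIS arm and 38.5 ± 59.9 CPM in those of the Entero arm. The mean of the list over the native bladders reached 5.07 in Entero animal 2, on the log2(CPM + 0.1) scale, against 3.94 to 6.51 in the ileum libraries and 1.78 to 2.57 in the SIS libraries.

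Junction proteins decide how tight an epithelium is. CLDN15, a pore-forming claudin of small intestine, was at 7.5, 9.82, 11.3, 13.5 and 8.14 CPM in SIS libraries 1 to 5 and 172, 228, 314, 124 and 352 CPM in ileum libraries 1 to 5 (log2 fold change -4.56, SE 0.38, adjusted p = 1.10e-08), and CLDN2, another pore former, at 0.271, 0.888, 0, 0 and 0 CPM in SIS against 30.6, 47.9, 4.33, 11.8 and 13 CPM in ileum (log2 fold change -6.57, SE 1.54, adjusted p = 0.00396). CLDN8, a barrier claudin, was at 9.77, 2.06, 36, 37.2 and 28.6 CPM in SIS against 0, 0.752, 0, 0 and 0 CPM in ileum (log2 fold change 7.21, SE 1.47, adjusted p = 0.000977), and CLDN1 at 14.1 to 29.1 CPM against 0.681 to 5.21 CPM (adjusted p = 0.000608). CDH17, the liver-intestine cadherin, fell, at 0.407 to 7.28 CPM in SIS and 68.4 to 589.9 CPM in ileum (adjusted p = 1.90e-05). CLDN4, a claudin of umbrella cells and of gut, was at 768, 277, 461, 618 and 960.3 CPM in SIS against 516, 684, 504, 138 and 910.0 CPM in ileum and did not pass (adjusted p = 0.905). Of the list, 2 rose and 4 fell of 20 tested, with a median log2 fold change of 0.20. Over all genes tested, 10.9% rose and 10.2% fell. Leaving out 1 library moved the log2 fold change to -8.26 without SIS library 2 for CLDN2 and to 12.30 without ileum library 2 for CLDN8.

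Transport of urea, water and ions also divided. SLC14A1, the urea carrier UT-B, was at 142, 34.1, 224, 124 and 319 CPM in SIS libraries 1 to 5 and 1.21, 2.71, 2.14, 0.951 and 0.349 CPM in ileum libraries 1 to 5 (log2 fold change 6.84, SE 0.66, adjusted p = 1.28e-07). SLC9A3, the sodium-proton exchanger that absorbs salt in gut, was at 11, 2.67, 11.4, 6.19 and 15.8 CPM in SIS against 287, 572, 175, 138 and 83.3 CPM in ileum (log2 fold change -4.74, SE 0.62, adjusted p = 7.62e-06). ATP12A, a proton-potassium pump, was at 7.43, 0.514, 14.9, 3.12 and 27.4 CPM in SIS and had no ileum read (at least 484-fold higher, adjusted p = 0.00105). GUCA2B, uroguanylin, a gut hormone of salt secretion, had no SIS read and 60.4 to 983 CPM in ileum (at least 14400-fold lower, adjusted p = 1.27e-06), and its receptor GUCY2C fell, at 0.281 to 4.15 CPM in SIS and 22.3 to 79.4 CPM in ileum (adjusted p = 6.62e-05). CFTR, the chloride channel of crypts, was at 0, 0.655, 0, 8.25 and 0 CPM in SIS against 68.2, 84.8, 20.1, 38.1 and 60.6 CPM in ileum. Its values did not overlap, but it did not pass (adjusted p = 0.0576), and SIS library 4 was the highest of its group. AQP3, a water and glycerol channel, was at 461 ± 288 CPM against 147 ± 127 CPM and did not pass (adjusted p = 0.168). Of the list, 3 rose and 8 fell of 25 tested, with a median log2 fold change of -0.61. In other fits, the fit to the 10 graft libraries alone called CFTR (adjusted p = 0.0433), the fit with the code letter as a term called CFTR (adjusted p = 0.0264) and limma's voom with the animal as a random effect called CFTR (adjusted p = 0.00161). CFTR passed without SIS library 4 (log2 fold change -8.49, adjusted p = 0.0102). The bound moved with 1 library and was at least 9420-fold lower without ileum library 5 for GUCA2B.

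HOX genes at the tail end of the clusters were high in SIS and at or near 0 in ileum. HOXA13, the last gene of its cluster, was at 76.1, 21.6, 94.4, 54.9 and 70.9 CPM in SIS libraries 1 to 5 and 0, 0.451, 0, 0.0475 and 0.2 CPM in ileum libraries 1 to 5 (log2 fold change 8.79, SE 0.67, adjusted p = 2.78e-09). HOXD13 was at 31, 4.12, 12.9, 3.21 and 3.53 CPM in SIS with no ileum read (at least 510.0-fold higher, adjusted p = 2.37e-05), and HOXD10 at 2.58, 1.87, 2.15, 2.17 and 0.659 CPM with none (at least 87.9-fold higher, adjusted p = 1.00e-06). HOXA11 was at 39.1, 20.6, 34.1, 20.2 and 26.6 CPM in SIS against 0, 1.71, 0, 0 and 0 CPM in ileum (log2 fold change 6.36, SE 0.95, adjusted p = 3.22e-05), and HOXB13 at 3.63, 0.281, 15.8, 20.1 and 15.9 CPM in SIS against 0, 0.251, 0, 0.0951 and 0.2 CPM in ileum (log2 fold change 6.62, SE 1.77, adjusted p = 0.00902). The lowest HOXB13 level in SIS was that of library 2, at 0.281 CPM. EVX1, a homeobox gene beside the HOXA cluster, was at 16.8, 2.24, 16.4, 28 and 11.9 CPM with no ileum read (at least 744-fold higher, adjusted p = 0.000105). HOXC8 went the other way, at 1.02, 0.748, 2.12, 2.31 and 1.01 CPM in SIS against 17.8, 12, 62.2, 41.2 and 53.7 CPM in ileum (log2 fold change -4.69, SE 0.71, adjusted p = 3.54e-05), as did HOXC6, which fell, at 0.561 to 4.35 CPM in SIS and 18.2 to 67.7 CPM in ileum (adjusted p = 0.000187). Of 35 HOX genes tested, 10 rose and 4 fell, and HOXD1 at the other end of its cluster was among those that rose (adjusted p = 0.0104, named after its value was seen). The other 2 that fell, HOXB9 and HOXC9, are named after their values were seen (adjusted p = 0.025 and 0.0491). HOXC9 missed the threshold with some single libraries left out (adjusted p = 0.0809 without SIS library 1, 0.0954 without SIS library 2, 0.0694 without SIS library 3, 0.0992 without SIS library 5, 0.0922 without ileum library 2, 0.0682 without ileum library 3, 0.086 without ileum library 5), as did HOXB9 (0.0555 without SIS library 1, 0.0551 without SIS library 3, 0.0528 without SIS library 4, 0.0581 without SIS library 5). The counts of the list that rose and fell were 10 and 2 without SIS library 1 and 8 and 2 without any 1 of SIS libraries 3 or 5. HOX genes overlap antisense transcripts, and the sources used here do not state how strands were counted, so reads of the 2 strands may be joined. The fit with no filter on low counts did not call HOXC9 (adjusted p = 0.0628), the fit to the 10 graft libraries alone did not call HOXC9 (adjusted p = 0.0897), the fit without mitochondrial genes did not call HOXC9 (adjusted p = 0.0521) and limma's voom with the animal as a random effect did not call HOXB13 (adjusted p = 0.0878). For the HOX list, the fit to the 10 graft libraries alone gave 5 that rose and 4 that fell. Counted without 1 library, the difference was at least 290.0-fold higher without SIS library 1 for HOXD13. With single libraries left out, the log2 fold change moved to 9.91 without ileum library 2 for HOXA13 and to 12.60 without ileum library 2 for HOXA11.

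**Figure D3:**
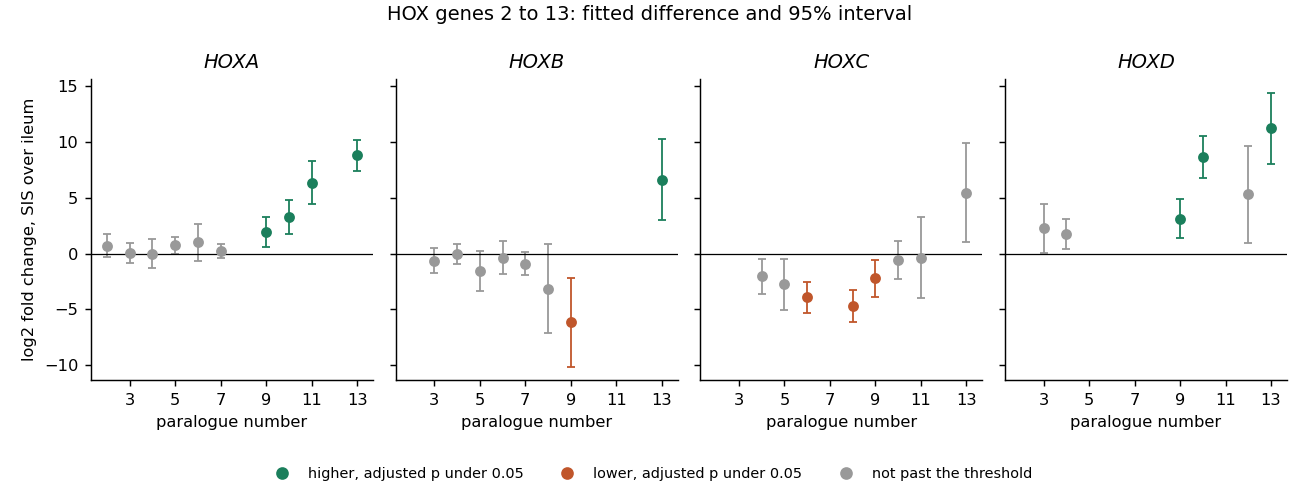
Fitted log2 fold change of SIS over ileum with its 95% interval for the tested HOX genes of paralogue numbers 2 to 13, by cluster (A to D) and number along the cluster. HOXA9 to HOXA11, HOXA13, HOXB13, HOXD10 and HOXD13 lie above 0, HOXC6, HOXC8, HOXC9 and HOXB9 lie below, and the intervals of HOXA2 to HOXA4 and HOXB3 to HOXB7 include 0.

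Transcription factors of regional mesenchyme showed a like division. TBX4 was at 33.1, 2.76, 5.71, 0.976 and 3.57 CPM in SIS and TBX5 at 17.1, 4.44, 3.51, 0 and 3.8 CPM, both T-box factors with no ileum read (at least 416-fold higher and at least 250.0-fold higher, adjusted p = 0.00587 and 0.00123). SIS library 1 was the highest for both and SIS library 4 the lowest, with no TBX5 read. PITX1, a homeobox factor of the hind body, was at 196, 96.7, 116, 53.9 and 107 CPM in SIS against 3.32, 3.96, 0.876, 11.2 and 9.93 CPM in ileum (log2 fold change 4.28, SE 0.71, adjusted p = 0.0001), and TBX2 rose, at 36.9 to 237 CPM in SIS and 6.34 to 29 CPM in ileum (adjusted p = 0.000187). NKX2-3, a homeobox factor of gut mesenchyme and its vessels, was at 0.17, 0.327, 0, 0 and 0.543 CPM in SIS against 20.5, 12.2, 47.7, 27.2 and 27.1 CPM in ileum (log2 fold change -7.04, SE 1.49, adjusted p = 0.00137). OSR1, a factor of urogenital mesenchyme, rose, at 45.2 to 168 CPM in SIS and 4.94 to 35.6 CPM in ileum (adjusted p = 0.00287). Of the list, 8 rose and 1 fell of 24 tested, with a median log2 fold change of 1.13. Limma's voom with the animal as a random effect did not call TBX4 (adjusted p = 0.0642) and TBX5 (adjusted p = 0.0968). For the regional mesenchyme list, DESeq2 gave 8 that rose and 2 that fell, the fit to the 10 graft libraries alone gave 6 that rose and 2 that fell and limma's voom with the animal as a random effect gave 5 that rose and 1 that fell. With 1 library left out of the counts it was at least 149-fold higher without SIS library 1 for TBX4 and at least 121-fold higher without SIS library 1 for TBX5. Single libraries shifted the log2 fold change to -7.82 without SIS library 5 for NKX2-3.

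Among signalling genes, SHH, the hedgehog ligand of basal urothelium, was at 51.2, 17.7, 42, 52.1 and 44.1 CPM in SIS libraries 1 to 5 and 0, 0.301, 0, 0 and 0 CPM in ileum libraries 1 to 5 (log2 fold change 9.34, SE 1.24, adjusted p = 8.37e-06). WNT7B, a WNT ligand of urothelium, was at 67.9, 6.41, 80.5, 71 and 113 CPM in SIS against 0, 0.501, 0, 0.0951 and 0 CPM in ileum (log2 fold change 9.10, SE 1.18, adjusted p = 5.90e-06). For both genes SIS library 2 was the lowest of its group and still above every ileum library. IHH, the hedgehog ligand of intestinal epithelium, was at 9.33, 0.935, 9.1, 15.3 and 4.54 CPM in SIS against 24, 48.7, 42.5, 12.2 and 44.4 CPM in ileum and did not pass (adjusted p = 0.183). WNT5A, a WNT ligand of mesenchyme, was at 3.79 to 7.26 CPM against 0.0503 to 2.41 CPM, and WNT5B at 7.48 to 42.6 CPM against 1.95 to 6.08 CPM (adjusted p = 0.0088 and 0.0108). WNT3, the WNT ligand of Paneth cells, fell (1.58 ± 0.85 CPM against 15.5 ± 10.2 CPM, adjusted p = 0.0114). BMP7, a bone morphogenetic protein, was at 34.5, 16.2, 42.9, 46.5 and 26.8 CPM in SIS against 7.14, 8.78, 3.21, 6.66 and 10.5 CPM in ileum (log2 fold change 2.20, SE 0.49, adjusted p = 0.00211). Of the WNT and hedgehog list, 7 rose and 1 fell of 28 tested, with a median log2 fold change of 1.33. Of the TGF-beta and BMP list, 4 rose and 0 fell of 17 tested, with a median log2 fold change of 0.64, and these counts were 1 and 0 without SIS library 2. INHBA and FST rested on SIS library 2. INHBA, the activin A subunit, was at 3.26, 286, 2.5, 10.4 and 8.95 CPM in SIS against 4.48, 7.57, 5.26, 5.04 and 3.99 CPM in ileum (log2 fold change 3.56, SE 1.02, adjusted p = 0.0141), and without that library its log2 fold change was 0.25 (adjusted p = 0.831). FST, the activin antagonist follistatin, was at 13.5, 357, 11.6, 21.6 and 21.5 CPM in SIS against 0, 7.22, 8.52, 1.47 and 4.24 CPM in ileum (log2 fold change 4.31, SE 1.04, adjusted p = 0.00417), and without it its log2 fold change was 1.99 (adjusted p = 0.0793). In other fits, the fit to the 10 graft libraries alone did not call INHBA (adjusted p = 0.0669), limma's voom with the animal as a random effect did not call FST (adjusted p = 0.054), INHBA (adjusted p = 0.565), WNT3 (adjusted p = 0.0925) and WNT5B (adjusted p = 0.0815) and the fit to the 10 graft libraries alone called IHH (adjusted p = 0.0374). For the WNT and hedgehog list, the fit to the 10 graft libraries alone gave 5 that rose and 2 that fell and limma's voom with the animal as a random effect gave 4 that rose and 0 that fell. For the TGF-beta and BMP list, DESeq2 gave 4 that rose and 1 that fell and limma's voom with the animal as a random effect gave 2 that rose and 0 that fell. Leaving out a single library raised the adjusted p to 0.073 without SIS library 4 for WNT5B. When libraries were left out in turn, the log2 fold change moved to 13.16 without ileum library 2 for SHH and to 11.19 without ileum library 2 for WNT7B.

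No smooth muscle gene that could be tested passed. Symbols for MYH11 and SMTN, 2 genes of that list, were not matched and are not analysed here. Of 15 tested, 0 rose and 0 fell by edgeR's test, by DESeq2 and by limma's voom, and by edgeR's test with any single library left out. The median log2 fold change was -0.65. The 1 gene at an unadjusted p under 0.05 was ACTA2, the smooth muscle actin that myofibroblasts share, at 2404 ± 1812 CPM against 719 ± 431 CPM (adjusted p = 0.129). ACTG2, the enteric smooth muscle actin, was at 4979, 8816, 1988, 1415 and 2118 CPM in SIS libraries 1 to 5 and 2044, 386, 27700, 10180 and 9307 CPM in ileum libraries 1 to 5 (adjusted p = 0.402). DES, desmin, was at 11630, 17490, 3052, 3167 and 3728 CPM in SIS libraries 1 to 5 and 4267, 1044, 40240, 17960 and 14690 CPM in ileum libraries 1 to 5 (adjusted p = 0.514). Within the ileum group ACTG2 ran from 386 to 27700 CPM and within SIS from 1415 to 8816 CPM, and the means of 9923 ± 10830 CPM and 3863 ± 3096 CPM differed by less than the SD of the ileum group. The 95% interval of the log2 fold change was -3.60 to 0.88 for ACTG2 and -3.04 to 1.04 for DES. Ileum library 2 was the lowest of its group for both. Among receptors and channels of contraction, PTGER3, a prostaglandin receptor, was at 21.3, 94.2, 13, 14.2 and 14.8 CPM in SIS against 4.38, 5.77, 10.1, 5.23 and 4.94 CPM in ileum (log2 fold change 2.37, SE 0.53, adjusted p = 0.00235), and the endothelin receptor EDNRA was at 49.1, 102, 38, 25.4 and 43.3 CPM in SIS against 7.44, 29.2, 5.6, 6.7 and 10 CPM in ileum (log2 fold change 2.13, SE 0.48, adjusted p = 0.00254). Of that list, 3 rose and 1 fell of 19 tested, with a median log2 fold change of 1.11, and these counts were 3 and 0 without any 1 of SIS libraries 2 or 4, 2 and 0 without any 1 of SIS libraries 3 or 5 or any 1 of ileum libraries 2 or 5, 5 and 1 without ileum library 1 and 4 and 0 without ileum library 4. CKM, the muscle creatine kinase, was at 0.0678, 0.281, 0.109, 0 and 0 CPM in SIS against 17.2, 0.251, 354, 107 and 79.6 CPM in ileum (log2 fold change -10.29, SE 1.69, adjusted p = 9.43e-05), and ileum library 2 alone lay within the SIS range. It belongs to a skeletal muscle list, of which 1 rose and 1 fell of 8 tested, with a median log2 fold change of -0.60. With single libraries left out, 0 to 1 of that list rose and 1 fell. Limma's voom with the animal as a random effect did not call PTGER3 (adjusted p = 0.0506). For the contraction list, DESeq2 gave 6 that rose and 1 that fell. Some fold changes depended on 1 library, moving to 1.38 without SIS library 2 for PTGER3, to 2.79 without ileum library 2 for EDNRA and to -11.11 without SIS library 2 and -9.15 without ileum library 3 for CKM on the log2 scale.

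Fibrillar collagens and wound matrix genes rose in number, but the count rested on few libraries. Of that list, 14 rose and 0 fell of 26 tested, with a median log2 fold change of 1.52. The counts were 3 and 2 without SIS library 2, 8 and 0 without ileum library 1, 9 and 0 without ileum library 4 and 4 and 0 without ileum library 5. Fitted on the 10 libraries of the 2 grafts alone, 3 rose and 0 fell, and by limma's voom 9 rose and 0 fell. COL1A1, the main collagen of scar and tendon, was at 2335, 6778, 1812, 1057 and 1063 CPM in SIS libraries 1 to 5 and 120.4, 1976, 256, 227 and 111 CPM in ileum libraries 1 to 5 (log2 fold change 2.28, SE 0.80, adjusted p = 0.0436). SIS library 2 was the highest SIS library and ileum library 2 lay within the SIS range. The adjusted p of COL1A1 was above 0.05 with many single libraries left out (0.0589 without SIS library 1, 0.168 without SIS library 2, 0.0513 without SIS library 3, 0.0819 without ileum library 1, 0.0913 without ileum library 3, 0.0925 without ileum library 4, 0.101 without ileum library 5). COL3A1, its partner in supple tissue, was at 1300, 3672, 1049, 627 and 825 CPM in SIS against 169.9, 678, 172, 232 and 118 CPM in ileum (log2 fold change 2.45, SE 0.63, adjusted p = 0.00665), and without SIS library 2 its log2 fold change was 1.79 (adjusted p = 0.0334). THBS1, thrombospondin 1, was at 173, 1456, 57.6, 132 and 346 CPM in SIS against 150.3, 51.8, 87.7, 41.2 and 27.6 CPM in ileum (log2 fold change 2.59, SE 0.77, adjusted p = 0.0181), and without SIS library 2 its log2 fold change was 1.30 (adjusted p = 0.172). COL14A1, a collagen that links fibrils, and COMP, a cartilage and tendon matrix protein, were higher in every SIS library than in any ileum library. COL14A1 was at 312, 516, 160.0, 82 and 85.6 CPM in SIS against 34.7, 25.6, 34.4, 13.4 and 7.64 CPM in ileum (log2 fold change 3.32, SE 0.73, adjusted p = 0.00199) and COMP at 154, 87.1, 176, 33.5 and 171 CPM in SIS against 4.28, 20.7, 17.5, 17.1 and 7.89 CPM in ileum (log2 fold change 3.20, SE 0.75, adjusted p = 0.00328). Without SIS library 2 their log2 fold changes were 2.79 and 3.31 (adjusted p = 0.00723 and 0.00407). The fit with no filter on low counts did not call COL1A1 (adjusted p = 0.0505), the fit to the 10 graft libraries alone did not call COL1A1 (adjusted p = 0.101) and THBS1 (adjusted p = 0.05004) and limma's voom with the animal as a random effect did not call THBS1 (adjusted p = 0.0602). Some calls were lost without 1 library, where the adjusted p went to 0.0508 without ileum library 5 for THBS1. Dropping 1 library took the log2 fold change to 1.54 without SIS library 2 and 3.87 without ileum library 2 for COL1A1 and to 3.11 without ileum library 2 for COL3A1.

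**Figure D4:**
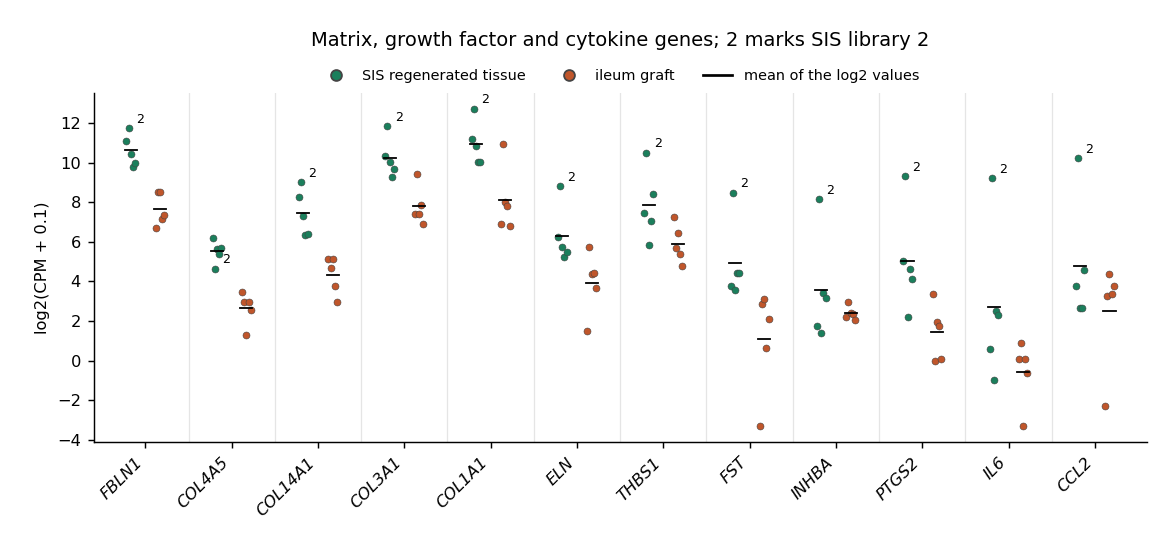
Levels of matrix, growth factor and cytokine genes as log2(CPM + 0.1), 1 point for each of 5 SIS and 5 ileum libraries, with the digit 2 marking SIS library 2. FBLN1, COL4A5 and COL14A1 separate the groups with or without that library, whereas for INHBA, IL6 and CCL2 it lies far above the other 4 SIS libraries, which lie close to the ileum libraries.

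Elastic fibre and basement membrane genes rose in number too, and 9 to 12 rose with any single library left out. FBLN1, fibulin 1, was at 2202, 3441, 1404, 895 and 1027 CPM in SIS libraries 1 to 5 and 105, 367, 369, 142 and 167 CPM in ileum libraries 1 to 5 (log2 fold change 2.96, SE 0.46, adjusted p = 4.50e-05), and FBLN2 at 689, 836, 559, 229.7 and 263 CPM in SIS against 39.2, 98.3, 143, 29.9 and 36.6 CPM in ileum (log2 fold change 2.89, SE 0.58, adjusted p = 0.000823). COL4A5 and COL4A6, the paired collagen IV chains of bladder muscle and epithelial basement membranes, rose together. COL4A5 was at 25 to 72.6 CPM against 2.34 to 11 CPM, and COL4A6 at 25.2 to 119 CPM against 1.62 to 9.98 CPM (adjusted p = 8.87e-05 and 0.00324). Without SIS library 2 the log2 fold change of FBLN1 was 2.59 (adjusted p = 0.00015). ELN, elastin, was at 75.5, 449.9, 52.7, 37.8 and 44.4 CPM in SIS against 2.72, 53, 20.4, 21.7 and 12.4 CPM in ileum (log2 fold change 2.58, SE 0.78, adjusted p = 0.0201), and without SIS library 2 its log2 fold change was 1.25 (adjusted p = 0.196). Of the list, 12 rose and 1 fell of 27 tested, with a median log2 fold change of 0.98. The 1 that fell was LAMA1, a laminin chain named after its value was seen, at 0.441, 1.31, 0.163, 0 and 0 CPM in SIS against 24.6, 11.1, 10.9, 14.7 and 6.19 CPM in ileum (log2 fold change -5.15, SE 1.36, adjusted p = 0.00817). In other fits, the fit to the 10 graft libraries alone did not call ELN (adjusted p = 0.057). Leaving out a single library raised the adjusted p to 0.0531 without ileum library 5 for ELN. Leaving out 1 library moved the log2 fold change to 3.21 without ileum library 2 for ELN and to -6.44 without SIS library 2 for LAMA1.

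Most vessel genes did not pass, where 10.9% of all genes tested rose and 10.2% fell. PECAM1, the endothelial adhesion molecule CD31, was at 85.4, 125, 72.6, 84.9 and 58.5 CPM in SIS libraries 1 to 5 and 134, 83.7, 109.6, 55.8 and 35.7 CPM in ileum libraries 1 to 5 (adjusted p = 0.975, 95% interval of the log2 fold change -0.77 to 0.82). Of the endothelial list, 3 rose and 0 fell of 15 tested, with a median log2 fold change of 0.03, and these counts were 0 and 1 without SIS library 2, 1 and 1 without ileum library 1 and 1 and 0 without any 1 of ileum libraries 4 or 5. EMCN, endomucin, rose, at 9.92 to 28 CPM in SIS and 3.42 to 9.2 CPM in ileum (adjusted p = 0.0152), without overlap. Of the single libraries left out, SIS library 2 alone ended its call (adjusted p = 0.0621). Of the glial list 0 rose and 0 fell of 12 tested by edgeR's test, by DESeq2 and by limma's voom, with 0 at an unadjusted p under 0.05 (1 rose without ileum library 3). VIP, a peptide of enteric nerves, had no SIS read and 17.4, 0, 45.2, 15.1 and 51.5 CPM in ileum (at least 962-fold lower, adjusted p = 0.000565). Ileum library 2 had none either. Of the neuronal list, 0 rose and 2 fell of 14 tested, with a median log2 fold change of -1.53, and these counts were 0 and 1 without any 1 of SIS libraries 3 or 5 or ileum library 3 and 1 and 2 without ileum library 1. MSLN, a mesothelial marker, was at 0.102, 3.41, 4.08, 282 and 3.72 CPM in SIS against 5.43, 0.251, 0, 0.665 and 0.0998 CPM in ileum (log2 fold change 5.51, SE 1.89, adjusted p = 0.0392), and the call rested on SIS library 4, without which its log2 fold change was 1.14 (adjusted p = 0.646). FABP4, of adipocytes and small vessels, was at 266, 58.7, 162, 298 and 84.3 CPM in SIS against 42.5, 19.1, 63.9, 38 and 59.2 CPM in ileum (log2 fold change 1.96, SE 0.54, adjusted p = 0.0114). Of a mesothelial and adipocyte list, which holds MSLN, 3 rose and 0 fell of 13 tested, with a median log2 fold change of 1.38. Among other fits, the fit to the 10 graft libraries alone did not call EMCN (adjusted p = 0.0568) and MSLN (adjusted p = 0.0795), the fit with the code letter as a term did not call MSLN (adjusted p = 0.136) and limma's voom with the animal as a random effect did not call MSLN (adjusted p = 0.375). For the endothelial list, the fit with DESeq2 size factors and limma's voom with the animal as a random effect gave 1 that rose and 0 that fell and the fit to the 10 graft libraries alone gave 0 that rose and 0 that fell. For the neuronal list, the fit to the 10 graft libraries alone gave 0 that rose and 1 that fell. Some calls were lost without 1 library, where the adjusted p went to 0.0813 without ileum library 2, 0.074 without ileum library 3, 0.0762 without ileum library 4 and 0.0859 without ileum library 5 for MSLN. With single libraries left out, the log2 fold change moved to 7.82 without ileum library 1 for MSLN.

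B cell and plasma cell genes fell. Of that list, 0 rose and 12 fell of 16 tested, with a median log2 fold change of -5.05. CD79A, the signalling part of the B cell receptor, was at 1.76, 3.09, 2.15, 0.781 and 2.64 CPM in SIS libraries 1 to 5 and 40.5, 50.1, 25.2, 249 and 9.38 CPM in ileum libraries 1 to 5 (log2 fold change -5.17, SE 1.26, adjusted p = 0.00466). MZB1, a plasma cell chaperone, fell, at 0.543 to 10 CPM in SIS and 23.4 to 221 CPM in ileum (adjusted p = 0.00829). Ileum library 4 was the highest for both genes. In the list, limma's voom with the animal as a random effect called 3 of the 16 lower. JCHAIN, which joins antibody units, was at 74.5, 163, 72.8, 91.3 and 38.1 CPM in SIS against 2670, 1608, 101, 3667 and 466 CPM in ileum (log2 fold change -4.27, SE 1.33, adjusted p = 0.023), with overlap, and missed the threshold with some single libraries left out (adjusted p = 0.05001 without SIS library 1, 0.0508 without SIS library 3, 0.0567 without SIS library 5). The native bladders of the 2 arms differed in the same sense, with a median log2 difference over the list of -5.19 at which 0 genes passed and 12 had an unadjusted p under 0.05. By edgeR's test 0 of the 16 genes passed in the difference between grafts less that between native bladders (0 at an unadjusted p under 0.05). PIGR, the epithelial antibody carrier, was at 20, 51.5, 352, 3838 and 345 CPM in SIS against 2186, 2604, 470.0, 1075 and 274 CPM in ileum and did not pass (adjusted p = 0.833). SIS library 4 was the highest of all 10 for PIGR. Limma's voom with the animal as a random effect did not call CD79A (adjusted p = 0.0821). Single libraries shifted the log2 fold change to -3.91 without ileum library 4 for CD79A.

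**Figure D5:**
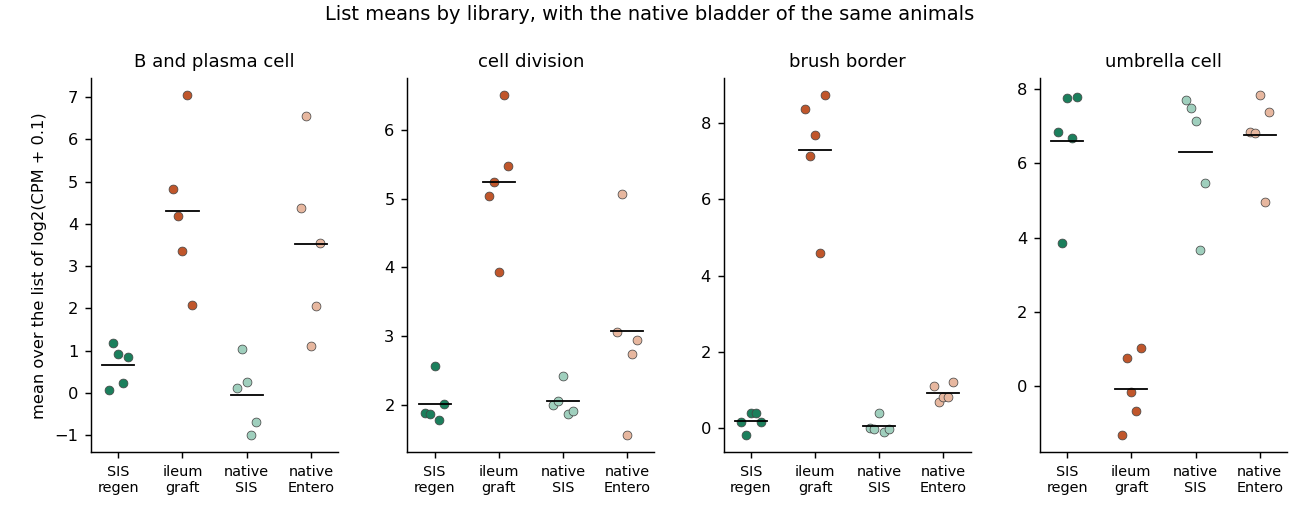
Mean log2(CPM + 0.1) over 4 gene lists, 1 point for each library of SIS regenerated tissue, ileum graft and the native bladders of the SIS and Entero arms (5 each). For B cell genes some native bladders of the Entero arm reach the range of the ileum grafts, and for cell division genes only that of Entero animal 2 does. For umbrella cell genes all native bladders of that arm lie above it.

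T and NK cell genes and macrophage genes differed less, where 10.9% of all genes tested rose and 10.2% fell. The T and NK cell list of 20 symbols gave 21 tested genes, since KLRD1 stands for 2 genes of the table. Of it, 0 rose and 1 fell of 21 tested, with a median log2 fold change of -0.79, and the only 1 that fell was GZMA, the protease granzyme A, at 2.04 ± 0.964 CPM against 17.5 ± 7.57 CPM (adjusted p = 0.0443). It missed the threshold with 9 of 10 single libraries left out (adjusted p = 0.0871 without SIS library 1, 0.051 without SIS library 2, 0.0916 without SIS library 3, 0.0819 without SIS library 4, 0.083 without SIS library 5, 0.071 without ileum library 2, 0.0622 without ileum library 3, 0.0718 without ileum library 4, 0.0584 without ileum library 5) and the list then had 0 called. In native bladder the median log2 difference of the list was -1.25, with 0 past the threshold by edgeR's test and 5 at an unadjusted p under 0.05. CD3E, of the T cell receptor complex, was at 13.6 ± 4.89 CPM against 24.1 ± 17.1 CPM (adjusted p = 0.484). Of the macrophage list, 0 rose and 1 fell of 17 tested, with a median log2 fold change of -0.52. The 1 that fell was CD68, a lysosomal protein of macrophages, at 7.53, 27.4, 10.2, 10.3 and 9.34 CPM in SIS against 49.7, 70.9, 36.2, 56.4 and 100.4 CPM in ileum (log2 fold change -2.28, SE 0.45, adjusted p = 0.000657). The highest SIS value was that of library 2. With single libraries left out the macrophage counts were 0 and 2 without SIS library 2 or any 1 of ileum libraries 1 or 3. The neutrophil, eosinophil and mast cell list holds CLC, given above. Of this list, 4 rose and 0 fell of 13 tested, with a median log2 fold change of 1.31. These counts were 4 and 1 without any 1 of ileum libraries 1 or 3. CPA3, a mast cell protease, was at 34.7, 159, 21.7, 74.2 and 27.7 CPM in SIS against 10.7, 16.2, 2.24, 13.4 and 22.4 CPM in ileum (log2 fold change 2.29, SE 0.66, adjusted p = 0.0143), and without SIS library 2 its log2 fold change was 1.61 (adjusted p = 0.071). The fit with no filter on low counts did not call GZMA (adjusted p = 0.0528). For the macrophage list, DESeq2 gave 0 that rose and 2 that fell. For the neutrophil, eosinophil and mast cell list, DESeq2 gave 4 that rose and 1 that fell and limma's voom with the animal as a random effect gave 2 that rose and 0 that fell.

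Cytokine genes went both ways, and several of the increases rested on 1 library. CCL25, the chemokine that draws lymphocytes to small bowel, was at 14.4, 4.16, 11.6, 3.65 and 9.88 CPM in SIS libraries 1 to 5 and 507, 1031, 430.2, 374 and 543 CPM in ileum libraries 1 to 5 (log2 fold change -6.04, SE 0.65, adjusted p = 5.11e-07), and IL22RA1, the receptor by which epithelium senses IL-22, at 1.62 to 5.08 CPM against 27.9 to 164 CPM (adjusted p = 0.000123). IL33, an alarm cytokine of barrier epithelium, rose, at 107 to 320.2 CPM in SIS and 4.44 to 37.9 CPM in ileum (log2 fold change 3.98, SE 0.54, adjusted p = 9.99e-06). IL6 was at 1.42, 599, 0.408, 5.49 and 4.92 CPM in SIS libraries 1 to 5 and 0.956, 1.75, 0, 0.951 and 0.549 CPM in ileum libraries 1 to 5 (log2 fold change 7.18, SE 1.65, adjusted p = 0.00289), and without SIS library 2 its log2 fold change was 1.86 (adjusted p = 0.228). CCL2, a monocyte chemokine, was at 13.4, 1196, 6.28, 6.16 and 23.9 CPM in SIS against 0.101, 9.63, 21, 10.1 and 13.6 CPM in ileum (log2 fold change 4.52, SE 1.20, adjusted p = 0.00852), and without it its log2 fold change was 0.19 (adjusted p = 0.881). PTGS2, the inducible cyclooxygenase, was at 32.2, 631, 4.57, 24.4 and 17.4 CPM in SIS against 10.4, 0.903, 3.7, 3.23 and 0.948 CPM in ileum (log2 fold change 5.21, SE 1.06, adjusted p = 0.000919), and without it its log2 fold change was 2.36 (adjusted p = 0.0166). Of the list, 7 rose and 7 fell of 23 tested, with a median log2 fold change of -0.05, and these counts were 7 and 4 without any 1 of SIS libraries 1 or 3 and 3 and 6 without SIS library 2. In native bladder the median log2 difference of the cytokine list was -1.36, with 0 past the threshold by edgeR's test and 7 at an unadjusted p under 0.05. Of the interferon-induced genes, 3 rose and 0 fell of 14 tested, with a median log2 fold change of 0.70. IFI44L, 1 of those that rose, was at 30.4, 26.1, 20.9, 12.1 and 30.4 CPM in SIS against 5.08, 6.32, 5.31, 4.66 and 6.04 CPM in ileum (log2 fold change 2.13, SE 0.41, adjusted p = 0.000502). Among other fits, the fit to the 10 graft libraries alone did not call CCL2 (adjusted p = 0.0818) and limma's voom with the animal as a random effect did not call CCL2 (adjusted p = 0.307), IL6 (adjusted p = 0.213) and PTGS2 (adjusted p = 0.0999). For the cytokine list, the fit to the 10 graft libraries alone gave 4 that rose and 5 that fell and limma's voom with the animal as a random effect gave 2 that rose and 5 that fell. When libraries were left out in turn, the log2 fold change moved to 4.70 without ileum library 2 for IL33 and to 6.01 without ileum library 1 for PTGS2.

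Immediate early genes, which cells switch on within minutes of a stimulus or of handling, rose: of them, 9 rose and 0 fell of 15 tested, with a median log2 fold change of 2.35. EGR1 was at 1250, 522, 208, 273 and 404 CPM in SIS libraries 1 to 5 and 72.3, 80.8, 104, 54.1 and 72.1 CPM in ileum libraries 1 to 5 (log2 fold change 2.79, SE 0.63, adjusted p = 0.00254), FOSB at 256, 458, 155, 391 and 693 CPM in SIS against 14, 20.9, 6.13, 1.47 and 8.48 CPM in ileum (log2 fold change 5.26, SE 1.22, adjusted p = 0.00307) and JUNB at 1549, 1624, 833, 605 and 775 CPM in SIS against 87.3, 330.1, 244, 169.8 and 225 CPM in ileum (log2 fold change 2.35, SE 0.63, adjusted p = 0.00874). FOS rose without overlap as well (adjusted p = 0.0188). In native bladder FOS was at 794 ± 842 CPM in the SIS arm and 119.5 ± 74 CPM in the Entero arm. Between the native bladders 0 genes of the list passed by edgeR's test and 5 had an unadjusted p under 0.05. In the difference between grafts less that between native bladders, 2 of the 15 were positive and 0 negative. With the animal as a block, that log2 difference was 1.25 for EGR1, 2.79 for FOSB, 2.02 for JUNB and 0.74 for FOS. These did not pass (adjusted p = 0.207, 0.323, 0.143 and 0.727). Some fold changes depended on 1 library, moving to 2.20 without SIS library 1 for EGR1 on the log2 scale.

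The seeded cells were of bone marrow, and genes that mark such cells were read without assuming that those cells remained. Of a list for blood stem and progenitor cells, 4 rose and 0 fell of 11 tested, with a median log2 fold change of 0.12. GATA2, a factor of blood stem cells that urothelium and vessels also express, was at 243, 84.6, 424, 139.9 and 185 CPM in SIS against 3.02, 12.4, 22, 6.56 and 10.2 CPM in ileum (log2 fold change 4.31, SE 0.69, adjusted p = 6.96e-05), and CD34, of progenitors, vessels and fibroblasts, at 144, 109, 80.6, 67.9 and 54.3 CPM in SIS against 39.2, 31.2, 35.7, 21.8 and 24.8 CPM in ileum (log2 fold change 1.58, SE 0.46, adjusted p = 0.0162). Native bladder levels of GATA2 were 256 ± 176 CPM and 239 ± 129.5 CPM in the SIS and Entero arms, and those of CD34 were 147 ± 60.8 CPM and 103 ± 71 CPM. Of a list for mesenchymal stromal cells, 4 rose and 0 fell of 11 tested, with a median log2 fold change of 1.06, and these counts were 2 and 0 without SIS library 2. PDGFRB, the receptor of pericytes and fibroblasts, was at 100.1, 246, 62.8, 58.7 and 60.7 CPM in SIS against 38.9, 47.5, 42.6, 18.5 and 9.58 CPM in ileum (log2 fold change 1.75, SE 0.49, adjusted p = 0.0124), and without SIS library 2 its log2 fold change was 1.17 (adjusted p = 0.0718). LEPR, the leptin receptor of marrow stroma, rose, at 1.96 to 12.1 CPM in SIS and 0.549 to 1.85 CPM in ileum (adjusted p = 0.0045).

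Mitochondrial genes took a smaller share of counts in SIS. The share was 8.24 ± 1.99% in SIS regenerated tissue and 19.8 ± 8.03% in ileum (SD, n = 5 each), a difference of -11.6 percentage points. No value overlapped, and the two-sided exact permutation test gave p = 0.00794, the smallest that splitting 10 libraries into 5 and 5 allows. The share was 8.65 ± 0.935% in the native bladders of the SIS arm and 8.38 ± 1.38% in those of the Entero arm. ND3, a subunit of complex I, was at 872, 760.2, 932, 866 and 1097 CPM in SIS against 5449, 2422, 4827, 2544 and 6515 CPM in ileum (log2 fold change -2.26, SE 0.27, adjusted p = 2.06e-06), and COX1, of complex IV, at 28280, 34740, 29240, 29970 and 44960 CPM in SIS against 208500, 75830, 68540, 58060 and 118800 CPM in ileum (log2 fold change -1.66, SE 0.39, adjusted p = 0.0031). Of the 13 genes, 0 rose and 9 fell. Leaving these genes out of the library sizes and the fit gave 1901 genes higher and 1698 lower. In other fits, the fit to the 10 graft libraries alone did not call COX1 (adjusted p = 0.0589). For the mitochondrial list, the fit to the 10 graft libraries alone gave 0 that rose and 5 that fell.

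The genes with the smallest p in the difference between grafts less that between native bladders were members of the groups above. MYO1A gave a log2 difference of -9.77 (SE 1.00, adjusted p = 1.02e-06). SLC7A7 gave a log2 difference of -5.37 (SE 0.52, adjusted p = 3.83e-07), and PDZK1 a log2 difference of -6.69 (SE 0.61, adjusted p = 2.36e-07). SLC14A1 gave a log2 difference of 6.92 (SE 0.80, adjusted p = 7.02e-06), and HOXA13 a log2 difference of 8.65 (SE 0.78, adjusted p = 2.26e-07). With the animal as a block, the log2 differences were -9.34 (adjusted p = 0.000464) for MYO1A, -5.10 (adjusted p = 0.00132) for SLC7A7, -6.32 (adjusted p = 0.00163) for PDZK1, 7.19 (adjusted p = 0.00396) for SLC14A1 and 8.83 (adjusted p = 0.00132) for HOXA13. HOXA13 was at 101 ± 12.1 CPM in the native bladders of the SIS arm and 91 ± 26.6 CPM in those of the Entero arm, and at 63.6 ± 27.4 CPM in SIS regenerated tissue. SLC14A1 was at 162 ± 89.4 CPM, 172 ± 58.8 CPM and 169 ± 108 CPM in the same 3 groups.

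The regenerated tissue of the PRS arm (4 libraries) was fitted against the same 5 ileum libraries, so the 2 comparisons share them and their values are only set side by side. There 1239 genes were higher (7.21%) and 1160 lower (6.75%), together 14.0%. UPK1A was at 304 ± 355 CPM in PRS, with a log2 fold change over ileum of 6.65 (adjusted p = 0.000896), against 8.39 for SIS. CDX2 gave -13.31 (adjusted p = 7.40e-06) in PRS and -10.49 in SIS, and FABP6 was at 0.0347 ± 0.0693 CPM in PRS and 0 reads in SIS. HOXA13 gave 8.86 (adjusted p = 7.92e-09) in PRS and 8.79 in SIS. TFF3, the goblet peptide, gave -5.37 in PRS and did not pass (adjusted p = 0.0509), while it gave -13.96 in SIS. MKI67 gave -3.96 in PRS (adjusted p = 0.0521) and -6.30 in SIS, and FBLN1 1.99 (adjusted p = 0.00383) and 2.96. Whether the SIS and PRS values differ was not tested. The SIS values of CDX2, HOXA13 and TFF3 moved with single libraries left out, as given above.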

How the data were processed

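Per the labels' protocols, RNA was taken from about 50 mg of tissue, poly-A mRNA was made into strand-marked (dUTP) libraries and these were sequenced as paired ends. The tools listed, per the submitters' processing notes, are featureCounts 1.5.0-p3, StringTie 1.3.3b and HISAT2 2.0.5. The sources used here name neither a genome build nor a strand setting, and coordinates are left out. The deposited table holds raw read counts per gene for 28 libraries and 27533 genes, 6306 of them without a usable symbol.

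From these counts edgeR 4.0.16 (R 4.3.3) kept 17177 genes (filterByExpr, minimum count 10), scaled by TMM and fitted the 6 groups of all 28 libraries with its quasi-likelihood test. Adjusted p is Benjamini-Hochberg over those genes with a threshold of 0.05, and SE is the size of the log2 fold change over the root of the F statistic. Ranges without an SD run from the lowest to the highest library, and values with ± are mean and SD over the 5 libraries of a group (4 for PRS). Replicates are separate animals of 1 group. Where a group had 0 reads, a fold is a bound from a floor of 3 counts over the group. Ratios on 1 to 3 reads carry an exact 95% interval that covers counting error only. The mitochondrial share was compared by an exact permutation test. limma 3.58.1 and DESeq2 1.42.0 gave alternatives, and figures were drawn with matplotlib 3.10.9. The model was also run on counts simulated from the mean level and fitted dispersion of each gene, with independent libraries. Such a run cannot show how the model handles a library that stands apart or libraries that share an animal.

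The comparison and 43 gene lists (784 symbols, 53 not matched) were chosen with earlier results of these data known. Genes are named by rule: the 12 largest called, non-overlapping changes in each direction, up to 6 of smallest p per list, up to 3 in each direction of the native contrast and of the difference between contrasts, and a fixed set. A few genes that the rule picks are not reported here. Other names are said to be chosen after their values were seen. Leaving each library out of the list counts and of the bounds, and the animal term for single genes, were added after seeing the data. Reads of near-identical gene copies, and of antisense or overlapping genes, may be shared. Promoter and protein sequences were not used here.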

Additional observations from a re-analysis of the deposited data

Results flagged for a closer look

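A library was picked out where its gap to the nearest of the other 4 libraries of its group took more than 0.71 of the range of the 5, on the scale of log2(CPM + 0.1). Of 368 such tests on single genes 36 passed, and of 86 on lists 6. Chance alone would pick out about 5% of groups if the values were normally distributed. Where the other 4 libraries had 0 reads, any read at all passed, whatever its size. The counts that passed can therefore not be set against 5%.

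In SIS library 2 the values above the rest were CCL2 at 1196 CPM (others 6.16 to 23.9), CD68 at 27.4 CPM (others 7.53 to 10.3), CDX2 at 0.561 CPM (others 0) and ELN at 449.9 CPM (others 37.8 to 75.5). High values there also included FST at 357 CPM (others 11.6 to 21.6), GCG at 1.17 CPM (others 0), MEP1A at 0.0935 CPM (others 0) and PTGER3 at 94.2 CPM (others 13 to 21.3). SIS library 2 was low in GATA3 at 71.3 CPM (others 276 to 452), GLP1R at 0.655 CPM (others 6.71 to 15.7), LGR5 at 0.748 CPM (others 4.18 to 6.01) and RARG at 47.2 CPM (others 115 to 148). Low values there also included SHH at 17.7 CPM (others 42 to 52.1), SNX31 at 4.12 CPM (others 80.5 to 224), SP6 at 0.468 CPM (others 7.53 to 21.1) and TMPRSS11E at 1.82 CPM (others 25.5 to 32.6). It was low too in WNT7B at 6.41 CPM (others 67.9 to 113).

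In SIS library 1 the values above the rest were SLC6A19 at 0.17 CPM (others 0). In SIS library 3 the values above the rest were RBP2 at 0.136 CPM (others 0). In SIS library 4 the values above the rest were ATOH1 at 0.669 CPM (others 0), HNF4A at 0.307 CPM (others 0), TFF3 at 0.307 CPM (others 0) and WNT5B at 42.6 CPM (others 7.48 to 10.6). SIS library 4 was low in WNT5A at 3.79 CPM (others 6.65 to 7.26). SIS library 5 was low in HOXD10 at 0.659 CPM (others 1.87 to 2.58).

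Ileum library 1 was low in CCL2 at 0.101 CPM (others 9.63 to 21). In ileum library 2 the values above the rest were CLDN8 at 0.752 CPM (others 0), HOXA11 at 1.71 CPM (others 0), KRT14 at 1.2 CPM (others 0) and PKP1 at 0.401 CPM (others 0 to 0.0499). High values there also included SHH at 0.301 CPM (others 0). Ileum library 2 was low in VIP at 0 CPM (others 15.1 to 51.5). Ileum library 3 was low in LGR5 at 0.0487 CPM (others 3.29 to 8.05). Ileum library 4 was low in DGAT1 at 175 CPM (others 427 to 573) and SLC6A19 at 141 CPM (others 1046 to 1501). In ileum library 5 the values above the rest were TMEM40 at 0.0499 CPM (others 0).

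The umbrella cell list had a mean of 3.85 in SIS library 2 (6.69 to 7.79 in the others). The intestinal transcription factor list had a mean of -0.10 in SIS library 1 (0.24 to 0.35 in the others). The water, ion and urea transport list had a mean of 0.93 in SIS library 2 (2.18 to 2.57 in the others). The collagen and wound matrix list had a mean of 8.94 in SIS library 2 (6.23 to 7.01 in the others). The TGF-beta and BMP list had a mean of 5.00 in SIS library 2 (3.50 to 3.89 in the others). The TGF-beta and BMP list had a mean of 2.25 in ileum library 1 (3.15 to 3.34 in the others). These means are of log2(CPM + 0.1). Ileum library 1 had 33.9% of its counts in mitochondrial genes, against 14.0 to 18.5% in the rest of its group.

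The difference between SIS and Entero tissue was not the same in the grafts as in the native bladders for 616 genes in the positive direction and 511 in the negative, by the test of the difference itself. That model has no term for the animal, and with the animal as a block the counts were 270 and 285. HOXA13 gave a difference of 8.65 on the log2 scale, SLC14A1 6.92, MYO1A -9.77, PDZK1 -6.69 and SLC7A7 -5.37. SIS library 2 was picked out more often than any other library, 10 times for a high and 11 times for a low value among the genes and lists above. Its part in the differences between the grafts is given by the values without it.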

How the results depend on the processing

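Against 1874 genes higher and 1753 lower, the counts were 1672 and 1913 with DESeq2 size factors, 1694 and 1597 with no filter, 2118 and 2412 by DESeq2, 1836 and 1681 with the code letter as a term, 1901 and 1698 without mitochondrial genes and 1703 and 1630 by limma's voom with the animal as a random effect. Fitted on the 10 graft libraries alone, 1026 were higher and 1300 lower, and 2152 of the 3373 calls that could be tested remained. The cause was not tested. With 1 library left out the counts ran from 1450 to 2149 higher and from 1329 to 2004 lower. The share of calls that were higher ran from 43.5 to 54.4%, against 51.7%. The median log2 fold change over all genes was 0.04, and 0.16 by limma's voom and 0.14 with the replicate block.

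The replicate number taken as a block in the 2 graft groups gave 652 higher and 848 lower, and 17 lower between native bladders. The numbers do not pair animals: the correlations of same-numbered deviations ran from -0.11 to -0.02, and 0 of the 5 SIS libraries correlated best with their own number. In the difference between grafts less that between native bladders (616 and 511), the replicate block of the animal, which does pair libraries, gave 270 positive and 285 negative. DESeq2 gave 895 and 849 there, and 8 higher and 56 lower between native bladders, where leaving out 1 library gave 0 to 1 higher. Leaving out both libraries of 1 animal gave 401 positive without SIS 3, 387 without SIS 4 and 365 without Entero 5. Over all such fits the difference ran from 320 to 729 positive and from 302 to 673 negative. The mitochondrial difference ran from -13.0 to -8.05 percentage points with 1 library left out.

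Of 184 genes followed under up to 18 alternatives, 164 were called and 130 of these kept the call under every one. Of 20 uncalled, 4 were called under some alternative. Of the called genes 0 changed sign under an alternative, and 4 of the uncalled did. With the replicate block, 20 of 178 genes lost their call and 1 gained it. At these depths and 5 libraries a group, the 95% interval of the log2 fold change lay inside 2-fold for 26.9% of genes not called, and inside 4-fold for 60.3%. No listed alternative was left out.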
